A study of Mus musculus with 12 samples.

Results

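MHC class I molecules display peptides from inside the cell to CD8+ T cells and NK cells. The peptides are cut by the proteasome, carried into the endoplasmic reticulum by the transporter TAP, and loaded with the help of tapasin onto a heavy chain paired with beta-2 microglobulin. In cells exposed to interferon gamma, the catalytic subunits of the constitutive proteasome are replaced in new particles by the immunoproteasome subunits Psmb8, Psmb9 and Psmb10, of which Psmb8 takes the place of Psmb5 and Psmb10 that of Psmb7. In the ileum these genes are used by the epithelium as well as by immune cells.

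The genes examined were chosen by name: B2m, H2-K1, Tap1, Tap2, Tapbp, Psmb8, Psmb9 and Psmb10, with the constitutive subunits Psmb5 and Psmb7 for comparison. Of these 10 genes, 8 had values in an immunology panel of 556 genes with values, and all 8 of their symbols are current RefSeq symbols. Tap2, the partner of Tap1 in the TAP transporter, and Psmb8 were not analysed here, because the table used holds no row for either. Thus 6 class I, peptide loading and immunoproteasome genes and 2 constitutive subunits were followed.

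RNA of the terminal ileum was counted with NanoString nCounter probes in 12 male C57BL/6 mice labelled as week 7. The 4 groups of 3 mice were SPF control (specific pathogen-free, colonized, no antibiotic), SPF PAT (colonized, given tylosin), GF control (germ-free, no antibiotic) and GF PAT (germ-free, given tylosin). PAT was 1 course of the macrolide tylosin from postnatal day 5 for 5 days, which pups received through the milk of dams that drank it, so the tissue was taken weeks after exposure. The SPF line came from purchased breeders and the GF line was bred locally, so that colonization and breeding source cannot be told apart, and the labels give no litter or cage.

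The total count per mouse was 806043 to 923395 in SPF control and 600308 to 681370 in the other groups, which the authors' size factors of 0.83 to 1.25 took into account. The 8 genes were counted well above the low end of the panel: the fewest counts in any mouse were 214 for Psmb9 and the most were 77291 for B2m. Epithelial markers were abundant in all mice, with a summed normalized count of 39550 to 77980 over the 4 that were measured, and none of those 4 was at 0. The mice of a group differed by far more than sampling noise, with a chi-square per degree of freedom of 13.5 to 85.0 between pairs. Dams with their whole litters were assigned to tylosin or control, and weaned mice were kept apart by sex and treatment. Effects of litter or cage therefore cannot be told apart from those of tylosin here. Nothing in the labels says whether the 3 mice of a group came from separate litters, so p-values measure the spread between these mice. In bulk tissue, fewer cells of a type and less RNA per cell cannot be told apart.

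Tap1 and Psmb9, the 2 genes that carry the result below, are head-to-head neighbours on mouse chromosome 17, and their RefSeq starts are 226 bases apart on the GRCm38.p6 build. The whole stretch between the starts is therefore upstream of both genes and is shown first. The upstream 150 bases of B2m and H2-K1, which are only some of the genes of the same pathway whose counts did not pass the test, are shown beside it. Capitals mark matches on either strand to 6 short motifs, which were picked with these sequences in view.
Between Psmb9 and Tap1, chr17:34187331-34187555, + strand (Tap1 runs to the right, Psmb9 to the left): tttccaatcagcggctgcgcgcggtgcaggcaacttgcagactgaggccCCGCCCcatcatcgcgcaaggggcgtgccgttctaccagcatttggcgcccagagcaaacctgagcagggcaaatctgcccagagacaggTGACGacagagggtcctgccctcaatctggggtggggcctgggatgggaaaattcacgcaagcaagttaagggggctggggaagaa
B2m, chr2:122147537-122147686, + strand: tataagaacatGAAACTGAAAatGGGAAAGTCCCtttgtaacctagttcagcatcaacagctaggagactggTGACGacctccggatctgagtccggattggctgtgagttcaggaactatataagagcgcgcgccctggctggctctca
H2-K1, chr17:34000348-34000497, - strand: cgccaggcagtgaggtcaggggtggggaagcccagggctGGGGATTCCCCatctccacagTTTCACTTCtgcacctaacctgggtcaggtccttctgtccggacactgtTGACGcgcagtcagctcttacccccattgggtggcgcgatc

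The motifs were an ISRE-type element of interferon regulatory factors (TTTC, any 2 bases, TTTC), a shorter form of it (TTTCNNTTC), a GAS-type element (TTCNNNGAA), a kappaB-type element of NF-kappaB (GGGA, any 4 bases, CC), a GC box of Sp1-like factors (GGGCGG) and an X2 half-site of CREB and ATF proteins (TGACG). Each was searched on both strands of 32851 RefSeq windows from 250 bases before to 50 bases after a start. They were present in 3.44% (ISRE-type), 7.52% (shorter form), 8.30% (GAS-type), 20.7% (kappaB-type), 35.7% (GC box) and 20.8% (X2 half-site) of the windows. The stretch between Tap1 and Psmb9 held 1 GC box and 1 X2 half-site. B2m held 1 ISRE-type match, 2 overlapping kappaB-type matches and 1 X2 half-site in the stretch shown. H2-K1 held 1 match to the shorter form, 2 overlapping kappaB-type matches and 1 X2 half-site. Of the 8 measured genes, 7 had a window (Psmb7 was not listed), and a match is only a description of these letters.

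Tap1 encodes the subunit of the peptide transporter that is paired with Tap2. The normalized count of Tap1 was 1414, 1641 and 1806 in the SPF control mice. It was 718.5, 545 and 498 in SPF PAT, 544, 413 and 384 in GF control, and 668, 474 and 559 in GF PAT. Every SPF control mouse was above every other mouse, and the other 3 groups overlapped. The gap between the lowest SPF control mouse and the highest of the other 9, SPF PAT mouse 21, was 0.98 on the log2 scale.

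The first comparison asked which genes differed with colonization when no antibiotic had been given. On the log2 scale, the mean of Tap1 was 10.66 ± 0.18 (SD, n = 3) in SPF control and 8.79 ± 0.26 (SD, n = 3) in GF control. The difference of 1.87 (SE 0.20, 95% interval 1.42 to 2.31), or 3.65-fold, passed the limma test with an adjusted p of 0.000166. Psmb9, the immunoproteasome subunit encoded beside Tap1, was the only other gene of the 6 to pass. Thus 2 of the 6 genes were higher in SPF control and 0 were lower, beside 19.4% of all panel genes that were higher, 22.7% that were lower and 42.1% that passed in either direction. The share of the 6 genes past the threshold in either direction was below that of the panel, and the share that was higher was above it. With only 6 genes a share moves in large steps, and neither distance was tested. The median difference of the 6 was 0.25, and that of all 556 genes was 0.08.

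The normalized count of Psmb9 was 732, 754 and 840.4 in SPF control. In SPF PAT it was 387, 309 and 275, in GF control 295, 258 and 266, and in GF PAT 329.9, 244 and 277. As for Tap1, no SPF control mouse overlapped with any other, and the gap of 0.92 on the log2 scale again lay above SPF PAT mouse 21. Psmb9 was 9.60 ± 0.10 (SD, n = 3) in SPF control and 8.09 ± 0.10 (SD, n = 3) in GF control on the log2 scale, a difference of 1.51 (SE 0.16), or 2.84-fold, with an adjusted p of 0.00016 by limma.

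**Figure D1:**
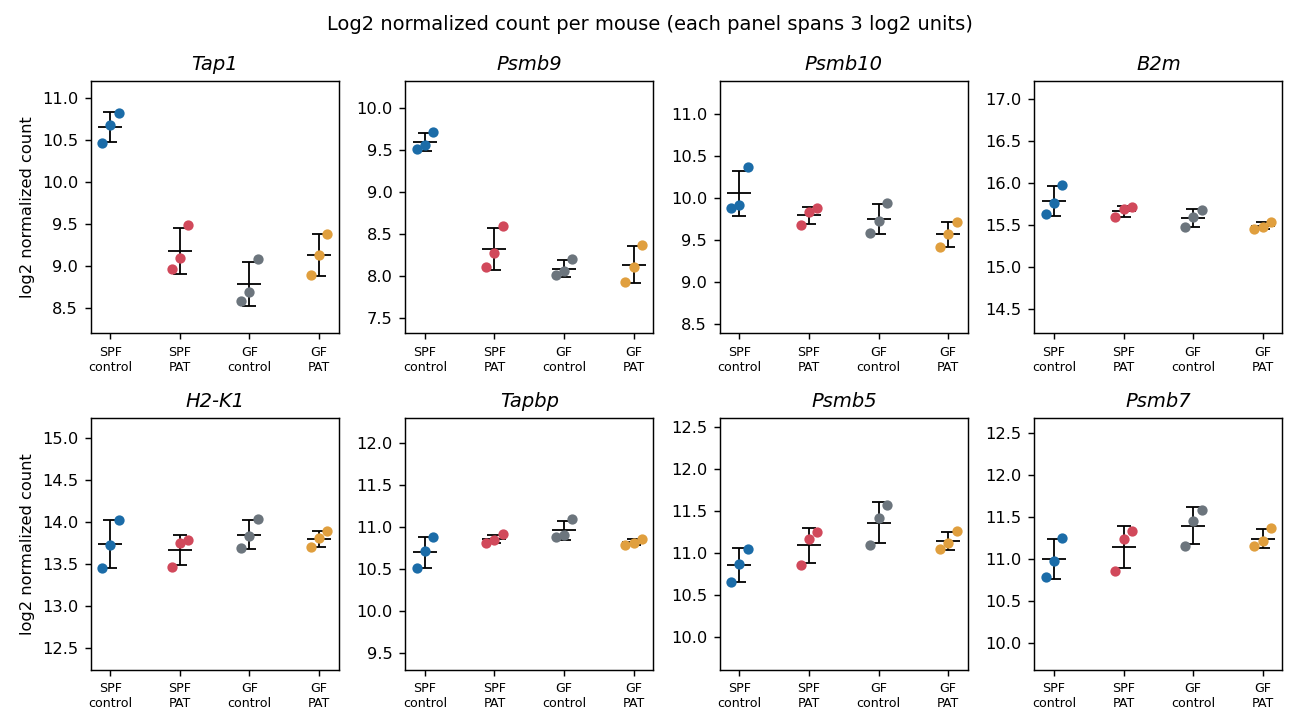
Log2 normalized count of the 8 genes in each of 12 mice, with group mean and SD (n = 3) as black bars. Every panel spans the same number of log2 units, so distances can be compared between panels but levels of different probes cannot. Tap1 and Psmb9 are the panels in which SPF control lies apart from all other mice, with gaps of 0.98 and 0.92.

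The other immunoproteasome subunit measured, Psmb10, did not pass. Its log2 normalized count was 9.88, 9.92 and 10.36 in SPF control, of which the first and second lay within the GF control range of 9.58 to 9.93. The difference was 0.31 (95% interval -0.05 to 0.67), with a limma adjusted p of 0.139. The upper end of the interval lies below the lower ends of the intervals of Tap1 (1.42) and Psmb9 (1.15).

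For the class I molecule itself no difference passed. B2m, the light chain shared by all classical class I molecules, had a log2 normalized count of 15.63, 15.76 and 15.97 in SPF control against 15.60, 15.68 and 15.48 in GF control. The groups overlapped, and the difference of 0.20 (95% interval -0.06 to 0.46) had an adjusted p of 0.183. H2-K1, a class I heavy chain, had 13.45, 13.74 and 14.03 in SPF control against 13.83, 14.04 and 13.69 in GF control. Its difference was -0.12 (95% interval -0.49 to 0.26), with an adjusted p of 0.585. Heavy chain genes are close in sequence, and which of them the H2-K1 probe also counts is uncertain.

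Tapbp encodes tapasin, which holds the empty class I molecule at the transporter. Its log2 normalized count was 10.50, 10.71 and 10.87 in SPF control, just below the 10.88, 11.09 and 10.90 of GF control. The groups did not overlap, but the difference of -0.26 (95% interval -0.52 to 0.00) had an adjusted p of 0.0992. Without SPF control mouse 8, its adjusted p was 0.0413.

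Both constitutive subunits had their lowest group mean in SPF control. Psmb5 had a log2 normalized count of 10.87, 10.65 and 11.06 in SPF control and 11.10, 11.57 and 11.42 in GF control, with no overlap. The difference of -0.51 (SE 0.17) passed with an adjusted p of 0.0346. This call was lost when any 1 of 5 mice was left out, with an adjusted p of 0.126 and 0.0938 without GF control mice 38 and 39, 0.0508 without GF PAT mouse 42, and 0.0823 and 0.130 without SPF control mice 2 and 7. It was also lost in the methods' analysis of variance with Tukey HSD (adjusted p = 0.144), with only the groups compared (0.0829) and under quantile normalization (0.239). Psmb7, with 10.97, 10.78 and 11.24 in SPF control and 11.15, 11.58 and 11.45 in GF control, differed by -0.40 with an adjusted p of 0.0955. Without SPF control mouse 8, the adjusted p of Psmb7 was 0.0473.

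The differences of B2m, H2-K1, Tapbp and Psmb10 were small enough that their sign turned under at least 1 other scaling of the mice. Median centring gave -0.24 for B2m and -0.13 for Psmb10. Scaling on Psmb5 and Psmb7, chosen after the values had been seen, gave 0.33 for H2-K1 and 0.19 for Tapbp, and quantile normalization gave 0.05 for H2-K1. No scaling run turned the sign of Tap1 or Psmb9. Median centring, quantile normalization and total count scaling did not turn that of Psmb5 or Psmb7, and scaling on these 2 genes sets their own differences by construction.

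The next comparison asked which genes differed after an early tylosin course in colonized mice. Tap1 and Psmb9 were again the genes that passed, now in the lower direction. Tap1 was 9.18 ± 0.27 (SD, n = 3) in SPF PAT on the log2 scale and fell by 1.47 (SE 0.20) from SPF control, a 2.78-fold decrease with a limma adjusted p of 0.00176. Psmb9 was 8.32 ± 0.25 (SD, n = 3) and fell by 1.27 (SE 0.16), a 2.41-fold decrease with an adjusted p of 0.00109. These were 2 of 6 genes lower and 0 higher, beside 12.2% of panel genes lower, 14.0% higher and 26.3% in either direction. The median difference was -0.19 over the 6 genes and -0.02 over all genes. This comparison shares the SPF control mice with the first one, so the decrease is not independent evidence of their high values.

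For the other 6 measured genes no difference passed. Psmb10 had 9.68, 9.87 and 9.82 in SPF PAT, just below the 9.88 of the lowest SPF control mouse, so the groups did not overlap. Its difference was -0.26 (95% interval -0.62 to 0.10), with an adjusted p of 0.240. B2m (15.70, 15.59 and 15.71 in SPF PAT) differed by -0.12 (95% interval -0.38 to 0.14) and H2-K1 (13.79, 13.47 and 13.75) by -0.07 (95% interval -0.44 to 0.30). Tapbp differed by 0.16, Psmb5 by 0.23 and Psmb7 by 0.14, with adjusted p from 0.304 to 0.541.

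In germ-free mice the same course gave no gene past the threshold. The count was 0 of 6 genes and 0% of the panel by limma, with 28 panel genes but 0 of the 6 at an unadjusted p under 0.05, and Tukey HSD also gave 0 of the 6. Tap1 was 9.13 ± 0.25 (SD, n = 3) in GF PAT, 0.35 above GF control (95% interval -0.10 to 0.79, adjusted p = 0.693). Psmb9 was 8.14 ± 0.22 (SD, n = 3), a difference of 0.05 (95% interval -0.31 to 0.40). The differences of B2m, H2-K1, Tapbp and Psmb10 lay between -0.18 and -0.05. Among them, Tapbp had 10.78 to 10.85 in GF PAT, below every GF control mouse (10.88 to 11.09). Its difference of -0.14 had a limma adjusted p of 0.693.

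**Figure D2:**
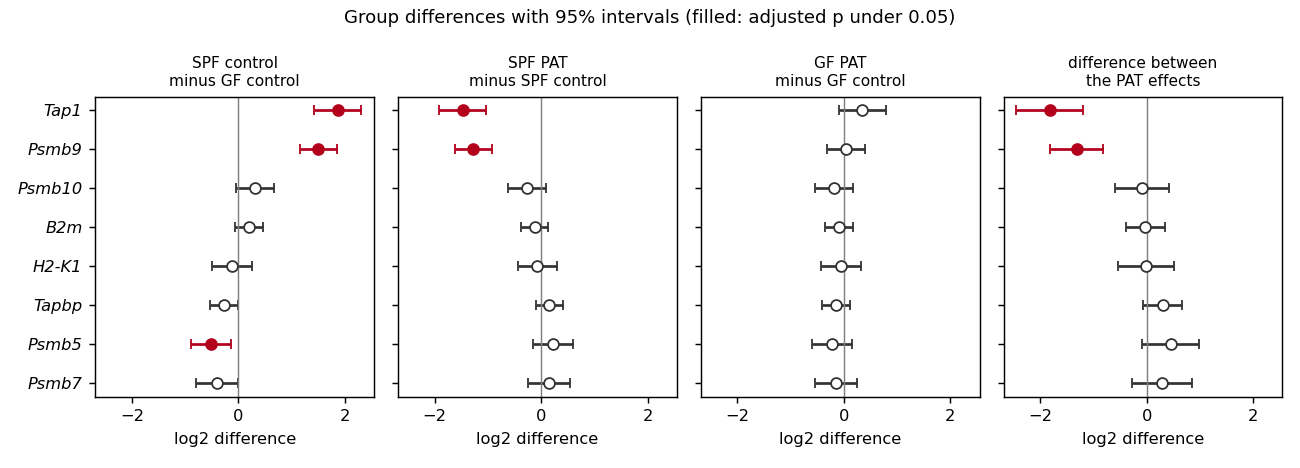
Difference between group means on the log2 scale with its 95% interval for the 8 genes in 4 comparisons, filled red where the limma adjusted p is under 0.05. Tap1 and Psmb9 pass in 3 of the comparisons, Psmb5 only in SPF control against GF control (-0.51), and no gene passes in GF PAT against GF control.

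Whether the tylosin effect differed with colonization was tested as the PAT effect in SPF mice minus that in GF mice. It was -1.82 (SE 0.28) for Tap1 with an adjusted p of 0.00924, and -1.32 (SE 0.22) for Psmb9 with an adjusted p of 0.00972. These 2 of 6 genes stood beside 17.1% of the panel. For B2m it was -0.03 (95% interval -0.39 to 0.34), for H2-K1 -0.02 (95% interval -0.55 to 0.51), for Psmb10 -0.08 (95% interval -0.59 to 0.42) and for Tapbp 0.30 (95% interval -0.07 to 0.67), none of which passed. Under median centring, Psmb9 had -0.77 with an adjusted p of 0.0609 while Tap1 still passed (-1.28). Median centring moved the median of all genes in this contrast from 0.01 to 0.55. It shifts every gene of a contrast by the same amount, so positions relative to that median could not change.

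SPF PAT was also set against GF control. Of the 6 genes, 0 passed, beside 2.16% of the panel, and 61 panel genes but 0 of the 6 had an unadjusted p under 0.05. Tap1 was 0.39 higher in SPF PAT (95% interval -0.05 to 0.84, adjusted p = 0.551) and Psmb9 0.23 higher (95% interval -0.12 to 0.59, adjusted p = 0.633). By group mean, these amounts were 21% and 15.6% of the differences between SPF control and GF control. In the order of group means, both genes ran SPF control, SPF PAT, GF PAT, GF control, and the last 3 of these overlapped. For H2-K1 the order was GF control, GF PAT, SPF control and SPF PAT, with overlap between all neighbours.

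Ratios of 2 genes within a mouse do not depend on how that mouse was scaled. Each gene was set against the mean of Psmb5 and Psmb7, and Psmb10 also against Psmb7, the subunit it replaces. The smallest p that an exact permutation test (two-sided) can give with 3 mice against 3 is 0.1, and over 40 such tests the smallest adjusted p was 0.222, so that no ratio can pass and sizes are given. The ratio of Tap1 was 2.32 higher on the log2 scale in SPF control than in GF control, and that of Psmb9 was 1.96 higher, both with no overlap. In SPF PAT the same ratios were 1.66 and 1.46 below SPF control by group mean, again without overlap.

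Psmb10 stood apart more clearly as a ratio than as a level. The log2 ratio of Psmb10 to Psmb7 was -0.94 ± 0.12 (SD, n = 3) in SPF control, -1.35 ± 0.16 (SD, n = 3) in SPF PAT, -1.65 ± 0.08 (SD, n = 3) in GF control and -1.68 ± 0.10 (SD, n = 3) in GF PAT. SPF control did not overlap with SPF PAT or GF control, and SPF PAT did not overlap with GF control, each with an exact permutation p of 0.1. The 2 germ-free groups overlapped, with a difference of -0.03. The change between SPF control and GF control was 0.71, made up of 0.31 in Psmb10 and -0.40 in Psmb7, neither of which passed by itself, and it was 0.34 under quantile normalization.

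B2m to the mean of Psmb5 and Psmb7 was 0.65 higher in SPF control than in GF control without overlap (exact permutation p = 0.1). Under quantile normalization this change was -0.0021. The level of B2m itself differed by 0.20, and the levels of Psmb5 and Psmb7 by -0.51 and -0.40, so most of the change lay in the constitutive subunits. H2-K1 and Tapbp overlapped in every one of these comparisons. Their ratios were 0.33 and 0.19 higher in SPF control than in GF control, although their own levels differed by -0.12 and -0.26.

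**Figure D3:**
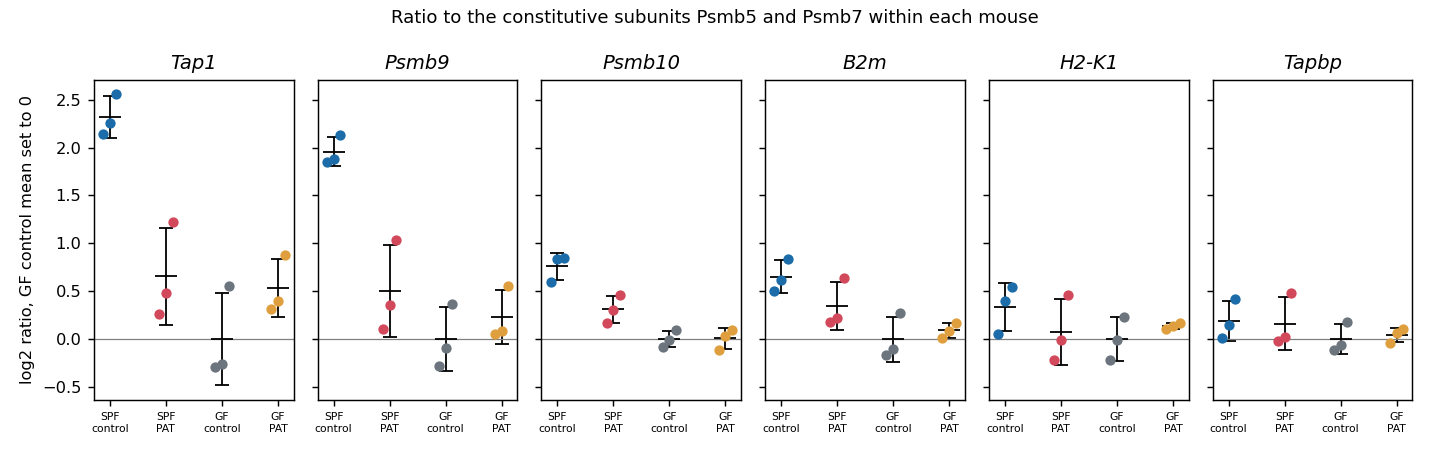
Log2 ratio of each of 6 genes to the mean of Psmb5 and Psmb7 in the same mouse, shifted so that the GF control mean is 0, with group mean and SD (n = 3) as black bars. SPF control is highest for Tap1 (2.32) and Psmb9 (1.96), lower but without overlap with GF control for Psmb10 (0.76) and B2m (0.65), and overlaps with GF control for H2-K1 and Tapbp. The levels of Psmb5 and Psmb7 were themselves lower in SPF control (-0.51 and -0.40), which raises every ratio there.

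A further set of ratios was chosen after the values had been seen, and is given as a description. Psmb9 to Psmb10, both immunoproteasome subunits, was 1.20 higher in SPF control than in GF control and 1.01 lower in SPF PAT than in SPF control, without overlap. Tap1 to H2-K1 was 1.98 higher and then 1.41 lower. Tap1 to Psmb9, neighbours on the chromosome, shifted least of these 3 between SPF control and GF control. It was 0.36 higher in SPF control and 0.30 higher in GF PAT than in GF control, in both cases without overlap.

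Across the 9 mice outside SPF control, which form 3 groups, Tap1 and Psmb9 had a Pearson correlation of 0.85 and a Spearman correlation of 0.88. This is a description over mice that share groups and scaling. SPF control lies apart, so that a value over all 12 mice would mostly restate that gap. Over the same 9 mice, Tap1 and H2-K1 had -0.21 (Pearson) and -0.08 (Spearman), and Psmb5 and Psmb7 had 0.98 for each.

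**Figure D4:**
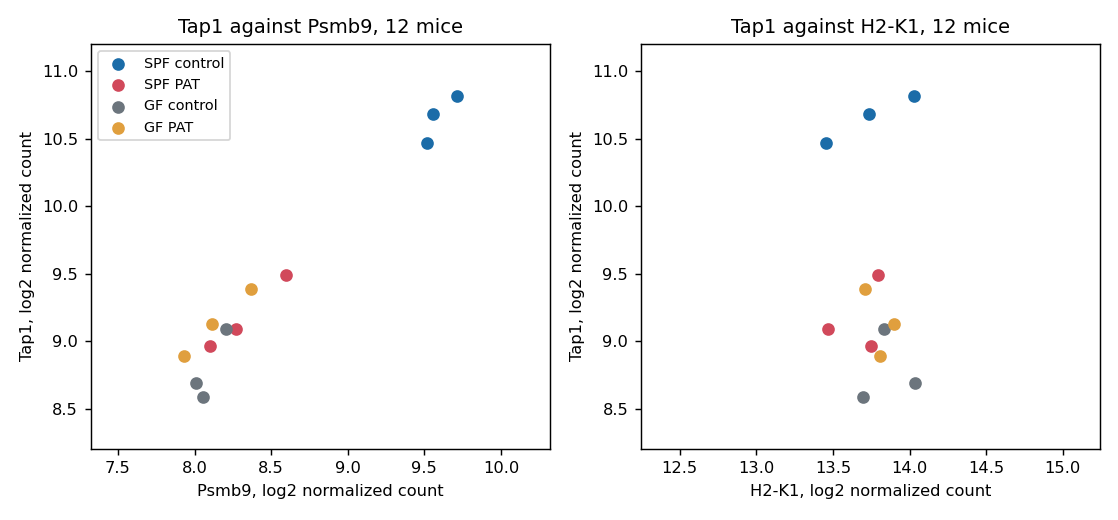
Log2 normalized count of Tap1 against Psmb9 (left) and against H2-K1 (right) in 12 mice, with colours for the 4 groups and axes of equal length in log2 units. Tap1 and Psmb9 lie along 1 line with SPF control at its upper end, while the SPF control mice are spread over H2-K1 values from 13.45 to 14.03.

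The genes whose pattern was most like the mean of the 6 (each scaled over mice) were Crlf2, Tbx21, Prdm1, Irf1 and Nod2. Crlf2 encodes a chain of the receptor for thymic stromal lymphopoietin, Tbx21 the transcription factor T-bet, Prdm1 Blimp-1, Irf1 an interferon regulatory factor and Nod2 a sensor of bacterial peptidoglycan. Their Pearson correlations over 12 mice were 0.85, 0.78, 0.76, 0.76 and 0.76. Over the 9 mice outside SPF control they were 0.63 for Crlf2, 0.54 for Tbx21, 0.49 for Prdm1, 0.53 for Irf1 and 0.64 for Nod2. The mean of the 6 joins genes that varied differently, so the genes most like Tap1 and Psmb9 alone were also listed, a choice made after the values were seen. Beside Psmb9, Tap1 was most like Cd7, a surface protein of T and NK cells, and the class II genes H2-Aa, H2-Ab1 and H2-DMa, with correlations of 0.87, 0.87, 0.87 and 0.92 over the 9 mice. Beside Tap1, Psmb9 was most like Ccl5, a chemokine, Gzma, a protease of cytotoxic granules, Cd7, and Tmem173, the DNA-sensing adaptor STING, with 0.92, 0.91, 0.78 and 0.81. These genes were ranked over all 12 mice, where each correlation was 0.97 to 0.98 and SPF control lay apart.

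Interferon gamma, the best known inducer of these genes, acts through a receptor of the chains Ifngr1 and Ifngr2 and the kinases Jak1 and Jak2. Of 12 measured genes of this axis and its class I regulators, 6 were higher and 5 lower in SPF control than in GF control. These 91.7% stood beside 42.1% of the panel (19.4% higher and 22.7% lower). The median of the 12 was 0.29 against 0.08 over all genes. Median centring left 2 higher and 5 lower, and the adjusted p was then 0.444 for Irf8. As deposited, Irf8 was 0.65 higher (adjusted p = 0.000932) and the chemokine Cxcl10 1.28 higher (adjusted p = 0.000433), whereas the chemokine Cxcl11 was 2.03 lower by group mean (adjusted p = 0.000737). In SPF PAT against SPF control, 4 rose and 6 fell, together 83.3% beside 26.3% of the panel (14.0% higher and 12.2% lower). Among those that fell were Irf1 by -0.76, Irf8 by -0.58 and Cxcl10 by -1.20, with adjusted p from 0.00179 to 0.00445. Median centring left 4 higher and 3 lower, without Irf1 (adjusted p = 0.244) and Irf8 (adjusted p = 0.427). Under quantile normalization Cxcl10 passed in neither comparison, with adjusted p of 0.0806 and 0.0595. None of the 12 passed in GF PAT against GF control. Ifng itself was counted 3 to 14 times in a mouse, too few to follow.

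The receptor chains were lowest in SPF control. The log2 normalized count of Ifngr1 was 12.34 to 12.76 in SPF control, below the 13.39 to 13.74 of GF control and the 13.11 to 13.44 of SPF PAT, and Ifngr2 was 11.56 to 11.87, below 12.42 to 12.71 and 12.22 to 12.47.

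Among other class I heavy chains and class I-like molecules, 6 were measured. Of these, 0 were higher and 1 (16.7%) was lower in SPF control than in GF control, beside 19.4% and 22.7% of the panel. That gene was H2-Q10, a secreted class I heavy chain, which was 1.48 lower by group mean (adjusted p = 0.00281). The median of the 6 was -0.36, and other scalings called 1 to 4 of them lower and none higher. In SPF PAT against SPF control none passed as deposited, whereas total count scaling called 3 higher and quantile normalization 1, and in GF PAT against GF control none passed under any scaling. Fcgrt, which pairs with B2m to carry IgG, had 10.53 to 10.95 in SPF control and 10.86 to 10.98 in GF control on the log2 scale.

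Among receptors that bind class I on T and NK cells, 4 of 18 measured were higher in SPF control than in GF control and 0 were lower, with a median of 0.42. This share of 22.2% was near the 19.4% of all panel genes that were higher. Median centring and quantile normalization each called 2, and scaling on Psmb5 and Psmb7 called 7. Cd8a, the co-receptor of cytotoxic T cells, was 2.12 higher (adjusted p = 0.00116), and Klrd1, a chain of an NK cell receptor, 1.33 higher (adjusted p = 0.00251). The others were Klrc1 and Cd160, 0.54 and 0.75 higher, of which Klrc1 was -0.05 under quantile normalization. In SPF PAT against SPF control, 3 (16.7%, beside 12.2% of the panel) fell, namely Cd8a by -1.79, Klrd1 by -0.77 and Klrc1 by -0.41. Of these, Cd8a passed under every scaling, Klrd1 had an adjusted p of 0.175 under median centring, and the sign of Klrc1 turned there (0.22).

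Markers of T cells moved in the same comparisons as Tap1 and Psmb9. Of 8 measured, 6 (75%) were higher in SPF control than in GF control and 5 (62.5%) were lower in SPF PAT than in SPF control. None was at 0 in any mouse. For this list and those below, the panel shares in SPF control against GF control were 19.4% higher and 22.7% lower. In SPF PAT against SPF control they were 14.0% higher and 12.2% lower. The median differences of the T cell markers were 1.98 and -1.39, and other scalings called 5 to 6 higher and 1 to 5 lower. The summed normalized count of these markers was 1329 to 2217 in SPF control, 450 to 1378 in SPF PAT, 401 to 965 in GF control and 582 to 1179 in GF PAT. Mouse 21, highest of SPF PAT in Tap1 and Psmb9, also had the highest sum there (1378), which overlaps with SPF control. The mouse highest in both genes also had the highest sum in GF control (mouse 37) and in GF PAT (mouse 41). In SPF control, mouse 8 was highest in both genes but had the lowest sum (1329), below that of mouse 21. Neutrophil markers moved likewise, with 3 of 4 higher and then 2 of 4 lower, at a summed normalized count of 23.4 to 128.4 over the 12 mice, but median centring called 1 and then 0 of them. Of 7 B cell markers 1, Blnk, was higher and then lower, with list medians of 1.84 and -2.05, and Blnk passed in neither comparison under median centring or total count scaling. Of 7 macrophage, monocyte and dendritic cell markers 1 was higher and 1 lower and then 1 lower, whereas scaling on Psmb5 and Psmb7 called 6 higher and 0 lower in SPF control. Of 3 NK and innate lymphoid markers 0 passed in either comparison. Of the epithelial markers, the peptidases Mme and Dpp4 were lower and Pigr higher in SPF control than in GF control, of which Pigr had an adjusted p of 0.471 under median centring. Mme was then 1.14 higher (adjusted p = 0.00543) and Dpp4 0.70 higher (adjusted p = 0.0112) in SPF PAT than in SPF control, and both passed under every scaling run. The part of these cell types in the result was not tested.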

How the data were processed

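The members and gene lists were chosen with earlier results of these data known, and groups were taken from the labels. The authors deposited log2 values of DESeq2-normalized NanoString counts for 556 genes. The 28 entries for reference genes and control probes hold no value, and no genome build applies to the counting. With 1 size factor per mouse, every value above 0 gave a whole count within 0.01, and a count of 0 is deposited as 0. These factors matched median-of-ratios factors computed from the panel genes counted in every mouse, to a relative difference of 6.58e-10. The scaling therefore rests on a panel of which 42.1% passed in SPF control against GF control. Whether positive controls or reference genes were used in a step before this is not given in the sources used here.

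Differences were tested on the deposited log2 values with limma 3.58.1 (lmFit and eBayes, R 4.3.3), fitting a mean for each of the 4 groups to the 12 mice together, without covariates or filtering. P-values were adjusted over the 556 genes (Benjamini-Hochberg), with a threshold of 0.05. The procedure was tested on simulated counts, in which genes varied independently with the same dispersion and changed in SPF control only. Variation that the genes of a mouse share was not simulated. Within-mouse ratios were compared by exact permutation over 20 relabellings. All measured members were named. From each gene list, at most 4 genes past the threshold were named per comparison, by smallest adjusted p, apart from Ifng, Ifngr1, Ifngr2, Fcgrt and the epithelial genes, which were picked with their values known. The planned ratio of Psmb8 to Psmb5 could not be given. Promoter windows are RefSeq (GRCm38.p6). Alternatives were other tests, scalings and filters, an added scaling on Psmb5 and Psmb7, and leaving out each mouse. The number of mice limits the precision. Values of 1 gene on a list are not reported here.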

Additional observations from a re-analysis of the deposited data

Results flagged for a closer look

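Tap1 and Psmb9 were marked because the effect of PAT differed between colonized and germ-free mice in the test of that difference. The difference between the PAT effects was -1.82 on the log2 scale for Tap1 (adjusted p = 0.00924) and -1.32 for Psmb9 (adjusted p = 0.00972), in 3 mice a group. With each mouse left out in turn, Tap1 ran from -1.97 to -1.70 (adjusted p 0.00397 to 0.0277) and Psmb9 from -1.45 to -1.20 (adjusted p 0.00397 to 0.0283). All 3 SPF PAT mice were below all 3 SPF control mice in both genes, while the germ-free groups overlapped.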

How the results depend on the processing

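For Tap1 and Psmb9, direction and call held in SPF control against GF control and in SPF PAT against SPF control under every alternative run and with each of the 12 mice left out. Tap1 ranged from 1.43 to 2.32 in the first and from -1.66 to -1.12 in the second, and Psmb9 from 1.07 to 1.96 and from -1.46 to -0.92. The number of the 6 genes past the threshold in SPF control against GF control rose from 2 to 4 under total count scaling, which added Tapbp (adjusted p = 0.0499) and Psmb10 (adjusted p = 0.0362), and to 4 under scaling on Psmb5 and Psmb7, which added B2m (adjusted p = 0.0138) and Psmb10 (adjusted p = 0.00165). It was 3 under median centring, which added Tapbp (adjusted p = 0.0329). In SPF PAT against SPF control it was 3 in place of 2 under scaling on Psmb5 and Psmb7, which added Psmb10 (adjusted p = 0.032). In the difference between the PAT effects it went from 2 to 1 under median centring, where Psmb9 was lost. The cause of these changes was not tested. Leaving out a mouse gave 2 to 3 in SPF control against GF control, 2 in SPF PAT against SPF control and in the difference, and 0 in the other comparisons. The median of all genes in SPF control against GF control was 0.08 as deposited, -0.36 under median centring, -0.14 under quantile normalization and 0.53 under scaling on Psmb5 and Psmb7. Using only the groups compared gives no value for the difference between the PAT effects. No paired analysis was possible because the labels give the mice no number shared between groups. With 3 mice a group, the intervals of B2m and H2-K1 still allow differences of 0.46 and 0.26 upward in SPF control.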

Other observations

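MHC class II genes present peptides from outside the cell. Of 10 measured, 6 were higher and 1 lower in SPF control than in GF control, together 70% beside 42.1% of the panel. In SPF PAT, 5 were lower and 0 higher than in SPF control, or 50% beside 26.3% of the panel. H2-Aa, H2-Ab1, Cd74 and H2-DMa were 2.05, 2.12, 2.21 and 2.19 higher on the log2 scale in SPF control (adjusted p from 0.000404 to 0.000944). In SPF PAT against SPF control, their differences were -1.68, -1.62, -1.79 and -1.64 (adjusted p from 0.00317 to 0.00829). None of the 10 passed in GF PAT against GF control. The difference between class I and class II genes was not tested. Under other scalings, 5 to 6 were higher in SPF control and 5 were lower in SPF PAT, although Cd74 had an adjusted p of 0.112 under quantile normalization in the latter. Total count scaling also called 1 higher in SPF PAT than in SPF control.

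Of 15 measured genes of the type I interferon axis, 1 was higher (Bst2, 0.47) and 3 were lower in SPF control than in GF control (Tyk2 by -0.60, Ifnar1 by -0.47 and Irf3 by -0.58). This share of 26.7% stood beside 42.1% of the panel. In SPF PAT against SPF control, Tyk2 was the only 1 to pass (0.47, adjusted p = 0.0151), or 6.67% beside 26.3% of the panel. These calls followed the scaling, with 0 higher and 7 lower in SPF control under median centring and 3 higher and 0 lower under scaling on Psmb5 and Psmb7.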
